A study of Mus musculus with 15 samples.

Results

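Deletion of Hdac1 was examined by comparing primary mouse embryonic fibroblasts (MEF) in which floxed Hdac1 had been removed with the same kind of cells left undeleted, across all genes of the array. The comparison used 6 of the 15 arrays of the series. Both groups were male primary MEF with floxed Hdac1 (fl/fl) that had been transduced with 2 retroviruses, of which the first carried Cre-ERT2, a recombinase that stays inactive until tamoxifen is given, and the second a scrambled version of a micro-RNA directed against Hdac2. The 3 arrays called KO came from cells that had received 200 nM tamoxifen, and the 3 called control from cells that had received ethanol. The deletion and the drug therefore changed together, and their contributions cannot be told apart within these 6 arrays. The sources used here do not say whether arrays within a group stem from separate cultures or embryos. The p-values therefore reflect only the spread among arrays, estimated over all 15 arrays of the series, and that spread may be technical.

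Values from the other 9 arrays are set beside the comparison. KO_Kd and Kd cells were fl/fl cells with Cre-ERT2 and the micro-RNA against Hdac2, given tamoxifen or ethanol, so that KO_Kd against Kd is the same deletion with Hdac2 knocked down, on 6 arrays that KO against control does not use. The third further group was MEF with intact Hdac1 (+/+) given tamoxifen. The sources used here do not give the viruses of the +/+ cells, and these cells can differ from the floxed cells in more than the allele. The arrays measure RNA of whole cultures, in which fewer cells of a kind and less RNA per cell cannot be told apart.

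Histone deacetylase 1 removes acetyl groups from lysines of histones and other proteins and works inside large nuclear complexes (Sin3, NuRD and CoREST), often beside its close relative Hdac2, which can occupy the same places. It is known as a corepressor, and the cell cycle inhibitor gene Cdkn1a is among its best studied targets. In fibroblasts both enzymes are known for their part in keeping the cells proliferating.

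The deleted gene was checked first. Hdac1 had intensities of 3499, 3498 and 3673 on the control arrays and 155, 144 and 183 on the KO arrays, a log2 fold change of -4.34 ± 0.15, adjusted p = 4.4e-11 (SE, limma moderated test with Benjamini-Hochberg adjustment over all genes, as for every adjusted p given here). The groups did not overlap, and the +/+ arrays lay above both, at 4806, 4419 and 4191. The sources used here do not say whether this probe set falls inside the deleted stretch. Hdac2, the partner enzyme, had 6536, 7354 and 7264 on the control arrays and 6492, 7308 and 7702 on the KO arrays, overlapping groups with a difference of 0.02 ± 0.07, adjusted p = 0.872. Hdac3, the related deacetylase of the NCoR complex, also overlapped, with 1345, 1372 and 1232 on the control arrays and 1177, 1319 and 1307 on the KO arrays (log2 fold change -0.05 ± 0.07, adjusted p = 0.632).

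The genes tested numbered 13382, each represented by its brightest probe set, of 18193 gene symbols on the array. KO cells had 2614 genes higher (19.5%) and 621 lower (4.64%) than control at an adjusted p under 0.05, in all 24.2% of the genes tested. At least 2-fold differences were held by 99 of the higher genes (0.74% of the genes tested) and by 21 of the lower genes (0.157%). All fold changes are differences of log2(intensity + 16), which understates the change of dim genes. The array number limits the precision, with a median SE of 0.0867.

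The excess of higher genes depended on the scale. The 75th percentile of intensity ran from 414 to 435 over the control arrays and from 420 to 509 over the KO arrays, KO replicate 1 lying within the control range and KO replicates 2 and 3 above it. The median log2 fold change of all genes was 0.08, against -0.01 after quantile normalization, which left 1863 genes higher (13.9%) and 1927 lower (14.4%), and -0.06 after centring each array on its median. Counts of KO against control after quantile normalization are therefore given beside most groups of genes below. Each count is to be read beside these shares of all genes, and counts in other comparisons beside the shares given for those comparisons. The spread within KO was also wider, with a median SD over genes of 0.13 on the log2 scale against 0.08 in control, and leaving out KO replicate 3 raised the lower genes from 621 to 934. Without KO replicate 1 or 2, or without control replicate 1, there were 393, 399 and 406 lower genes. Weighting the arrays by how well they fitted their group left 1073 higher and 203 lower genes. The main fit shared the estimate of spread among all groups, and fitting only the KO and control arrays gave 2046 higher and 594 lower genes.

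**Figure D1:**
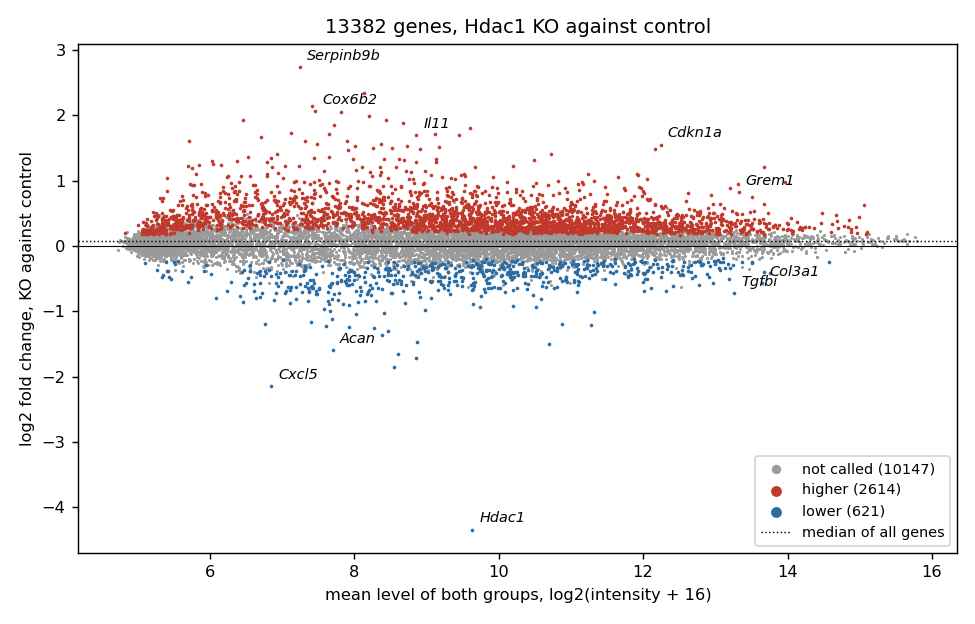
Log2 fold change of KO against control (vertical axis) against the mean level of both groups as log2(intensity + 16) (horizontal axis), 1 point per gene, n = 3 arrays a group. Red points mark the 2614 higher and blue points the 621 lower genes, and the dotted line marks the median of all genes at 0.08.

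The 15 highest and the 15 lowest genes were chosen, among those past the threshold, for KO and control arrays that do not overlap. Over all genes tested, 27.6% had every KO array above every control array and 7.36% every KO array below. The highest included an intracellular protease inhibitor, secreted factors and genes usually named for other tissues. Serpinb9b, a serine protease inhibitor of the clade B family, had intensities of 46.5, 42.8 and 39.4 on the control arrays and 313, 411 and 416 on the KO arrays (log2 fold change 2.74 ± 0.10, adjusted p = 1.48e-10). Hoatz, named for a role in cilia and flagella, had 133, 101 and 95.9 on the control arrays and 526, 697 and 642 on the KO arrays. Dner, a neuronal transmembrane protein with EGF repeats that binds Notch, had 47.7, 102 and 55.6 on the control arrays and 317, 429.8 and 295 on the KO arrays. The differences were 2.34 for Hoatz and 2.14 for Dner on the log2 scale. Cox6b2, the testis form of a cytochrome c oxidase subunit, went from 81.4, 70.4 and 58.9 to 288, 309 and 454 (log2 fold change 2.07 ± 0.14, adjusted p = 1.04e-07). Siglecg, a sialic acid binding lectin best known from B cells, went from 88.6, 110.4 and 84.5 to 386, 451 and 495. Siglecg rose by 2.06 on the log2 scale.

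Secreted proteins stood among the next genes. Nppb, the B-type natriuretic peptide, went from 22.3, 43.2 and 24.7 to 165, 188 and 123 (log2 fold change 1.93 ± 0.16, adjusted p = 7.77e-07). Inhbb, the inhibin beta B subunit that forms activin B, went from 241, 314 and 323 to 866, 1088 and 1029 (log2 fold change 1.71 ± 0.14, adjusted p = 4.88e-07). The cytokine Il11 went from 179, 254 and 305 to 762, 891 and 811. Gas6, the ligand of the TAM receptor tyrosine kinases, went from 308, 369.6 and 299 to 898, 942 and 1046 (log2 fold change 1.52 ± 0.12, adjusted p = 3.18e-07).

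Genes of other kinds followed. Ddit4l, a relative of REDD1 that restrains mTOR signalling, had 159, 173 and 153 on the control arrays and 628, 643 and 708 on the KO arrays (log2 fold change 1.93 ± 0.13, adjusted p = 8.48e-08). Vnn1, the pantetheinase vanin 1, had 185, 223 and 188 on the control arrays and 739.8, 794 and 776 on the KO arrays. Its KO arrays lay closely together, and its difference was 1.88 ± 0.09, beside a median SE of 0.0867 over all genes. A second probe set of Vnn1 gave a difference of 2.50. The transcription factor genes Foxs1 and Bnc1, a forkhead and a zinc finger protein, rose by 1.99 and 1.86. Foxs1 was at 89.4, 154 and 162 on the control arrays and 463, 601 and 662 on the KO arrays, and Bnc1 at 69.9, 129 and 94.5 on the control arrays and 388, 369 and 403 on the KO arrays. Trnp1, a nuclear protein, and Slc1a6, a glutamate transporter known from Purkinje cells, rose by 1.73 and 1.72. Second, dim probe sets did not show the change of some genes, with differences of -0.01 for Trnp1 and 0.14 for Inhbb, and among genes described below -0.07 for Klf5 and -0.06 for Neu1.

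**Figure D2:**
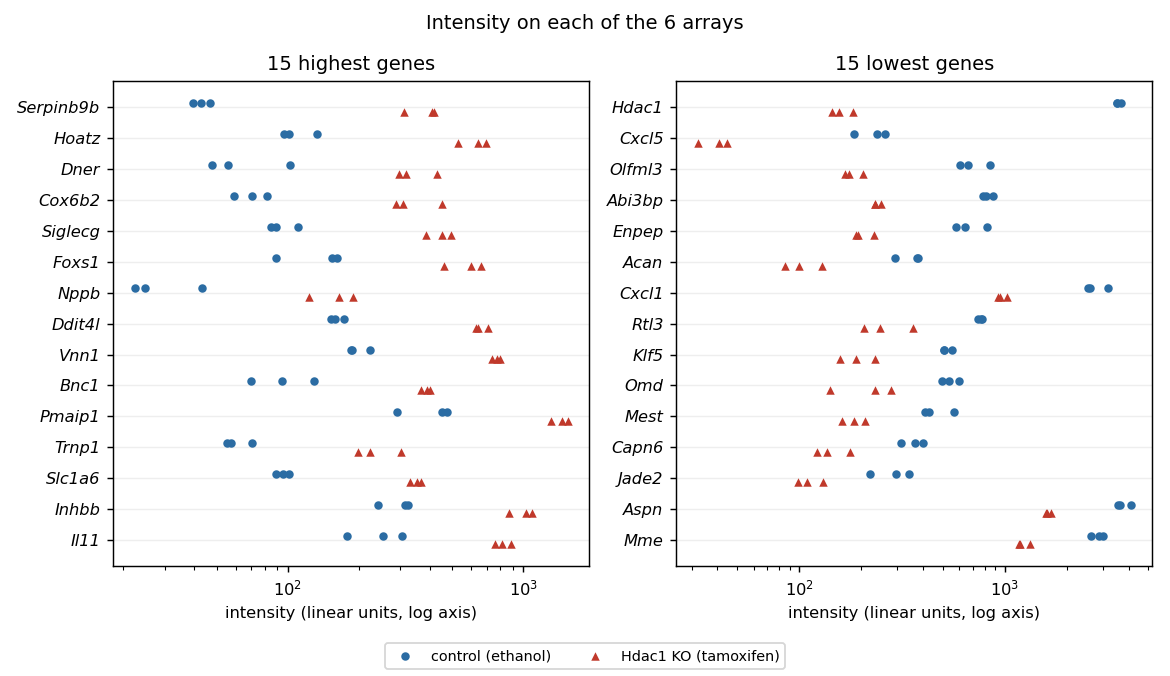
Intensity on each array (log axis) of the 15 highest and the 15 lowest genes of KO against control, blue circles for the 3 control arrays and red triangles for the 3 KO arrays. The genes were chosen for groups that do not overlap, so the gap between colours in each row reflects that choice.

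A single gene went from off to on. Ano3, a member of the anoctamin family, was under its array's own 40th percentile on all control arrays, at 18.9, 17.7 and 16.9, and above the 60th percentile on all KO arrays, at 56.2, 61.6 and 71.2 (log2 fold change 1.22 ± 0.13, adjusted p = 6.2e-06). No gene went from on to off by the same rule, Hdac1 included, whose KO values of 144 to 183 still lay above the 60th percentile of 51.4 to 63.6.

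The lowest genes included chemokines, matrix proteins and membrane peptidases. Cxcl5, a chemokine that attracts neutrophils, had 261, 239 and 185 on the control arrays and 40.7, 32.1 and 44.6 on the KO arrays (log2 fold change -2.14 ± 0.15, adjusted p = 2.22e-07). Cxcl1, a chemokine of the same kind, had 3173, 2554 and 2587 on the control arrays and 931, 950.3 and 1027 on the KO arrays (log2 fold change -1.49 ± 0.23, adjusted p = 0.000215). Olfml3, a secreted olfactomedin-like protein, had 844, 663 and 604 on the control arrays and 166, 175 and 205 on the KO arrays (log2 fold change -1.85 ± 0.11, adjusted p = 3.98e-08). Abi3bp, a matrix protein, had 880.3, 781 and 814 on the control arrays and 234, 250.4 and 234 on the KO arrays, and Acan, the cartilage proteoglycan aggrecan, had 292, 379 and 374 on the control arrays and 99.8, 85.6 and 129 on the KO arrays. The differences of Abi3bp and Acan were -1.72 ± 0.13 and -1.60 ± 0.14 on the log2 scale.

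A pair of surface peptidases fell together. Enpep, aminopeptidase A, which cleaves angiotensin II, had 822, 642 and 576 on the control arrays and 231, 188 and 193 on the KO arrays (log2 fold change -1.65 ± 0.19, adjusted p = 1.5e-05). Mme, the neutral endopeptidase neprilysin, had 2994, 2883 and 2635 on the control arrays and 1192, 1176 and 1321 on the KO arrays (log2 fold change -1.20 ± 0.09, adjusted p = 2.27e-07). The small leucine-rich proteoglycans osteomodulin (Omd) and asporin (Aspn) fell as well. Omd was at 598, 533 and 495 on the control arrays and 234, 140.4 and 279 on the KO arrays, and Aspn at 4104, 3634 and 3538 on the control arrays and 1578, 1609.9 and 1673 on the KO arrays. Omd spread widely within KO while Aspn did not, and their differences were -1.30 and -1.20. The transcription factor Klf5 went from 505, 505 and 555 to 158, 189.6 and 235, and the chromatin-associated PHD finger gene Jade2 from 342, 296 and 221 to 98.3, 108 and 130.1, differences of -1.37 and -1.22. Mest, an imprinted gene expressed from the paternal copy, fell by 1.26, Capn6, a calpain without protease activity, fell by 1.24, and Rtl3, a gene derived from a retrotransposon, fell by 1.48.

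Several of these genes differed from control in the +/+ cells too, which had tamoxifen and no deletion. KO against +/+ uses the same KO arrays and +/+ against control the same control arrays as the main comparison, so the values are given side by side only. KO cells had 1710 genes higher (12.8%) and 1517 lower (11.3%) than the +/+ cells, and the +/+ cells had 2881 higher (21.5%) and 927 lower (6.93%) than control. Serpinb9b was at 209, 208 and 203 in +/+ cells, between control and KO, 1.92 above control and 0.82 below KO on the log2 scale. Il11 was at 1109, 1017 and 898 in +/+ cells, and KO minus +/+ was -0.29 ± 0.15 (adjusted p = 0.183). Foxs1 was at 384, 475 and 416, with a difference of 0.41 ± 0.19 (adjusted p = 0.13). For these 2 genes the tamoxifen-treated groups with and without Hdac1 did not pass the test of their difference, and both lay above control.

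For Hoatz, Cox6b2, Vnn1, Bnc1 and Inhbb the +/+ cells did not pass the test against control. Hoatz was at 152, 129 and 69.2 in +/+ cells, 2.31 below KO, and Cox6b2 at 67.3, 73 and 56, 2.15 below KO. Vnn1, Bnc1 and Inhbb likewise lay 1.70, 1.70 and 1.59 below KO. Dner, Siglecg and Ddit4l were lower still in +/+ cells than in control, at 19.2, 20.8 and 24.1 for Dner. On the lower side, Cxcl1 was far dimmer in +/+ cells than in either floxed group, at 375, 223 and 155, so that KO stood 1.97 above it. Jade2 and Omd shared that order, with KO 0.88 and 0.60 above +/+ cells. Capn6, Mest and Acan ran the other way, at 2230.4, 2061 and 1898 in +/+ cells for Capn6, which placed KO at -3.70, -2.88 and -3.41 relative to them. Olfml3, Mme and Klf5 were lower in KO than in both the control and the +/+ cells, at -1.83, -1.16 and -2.03 against +/+.

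The deletion on a background of Hdac2 knockdown gave an independent set of arrays, although it shares the contrast of tamoxifen with ethanol. KO_Kd against Kd had 5736 genes higher (42.9%) and 2733 lower (20.4%), together 63.3% of the genes tested. Of the 2614 genes higher in KO, 2036 were higher there as well, 77.9% of the first list and 35.5% of the second, and 153 (5.85%) were lower. Of the 621 genes lower in KO, 451 were lower there too, 72.6% of the first list and 16.5% of the second, and 91 (14.7%) were higher. The same shares after quantile normalization were 72.1% and 75.5% in the same direction and 9.45% and 10.8% in the opposite one, where 31.3% of all genes were higher and 32.6% lower in KO_Kd. Across the 13382 genes the 2 sets of fold changes correlated at r = 0.53 (Pearson) and 0.51 (Spearman), as a description over genes, which are not independent replicates.

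**Figure D3:**
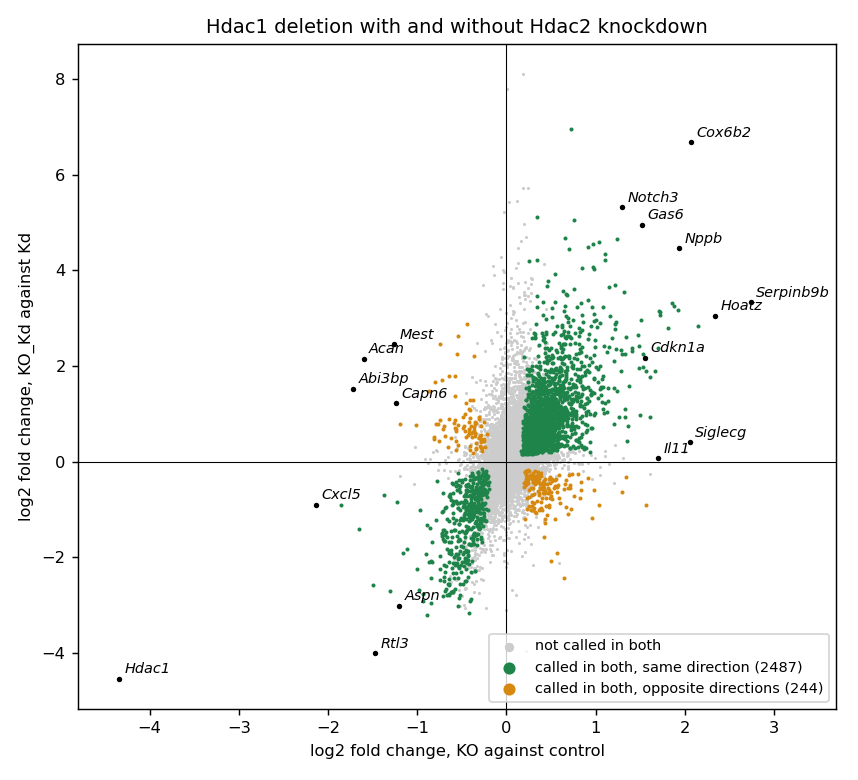
Log2 fold change of KO_Kd against Kd (vertical axis) against that of KO against control (horizontal axis), 1 point per gene, from 2 sets of 6 arrays. Green points mark 2487 genes called in both with the same direction and orange points 244 called in opposite directions, and genes drawn in black are named, Acan, Mest, Abi3bp and Capn6 being of the opposite kind.

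The difference between the deletion with and without the knockdown was tested as an interaction, which 5738 genes passed (42.9%), 25.7% of all genes as higher and 17.1% as lower with the knockdown. Cox6b2 went from 67.4, 53.4 and 65.9 in Kd to 7743, 8029 and 8239 in KO_Kd, a log2 fold change of 6.68 where KO alone gave 2.07. Nppb, Inhbb and Gas6 also had larger differences there, 4.46, 3.14 and 4.96, and the test of the difference between the 2 deletions passed for each (adjusted p = 3.28e-07, 1.76e-05 and 1.66e-10). Serpinb9b and Hoatz rose by 3.34 and 3.06. Il11, Foxs1 and Siglecg had smaller differences, of 0.07, 0.20 and 0.41 (adjusted p of the difference 1.08e-05, 4.75e-05 and 1.41e-06).

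Some of the genes that fell in KO rose in KO_Kd. Acan went from 409, 416 and 358 in Kd to 1916, 1819.5 and 1701 in KO_Kd, a rise of 2.16 in place of a fall of 1.60. Abi3bp, Mest, Capn6 and Mme also rose there, by 1.52, 2.46, 1.22 and 0.80, and each difference between the deletions passed its test. Rtl3, Aspn, Omd and Cxcl1 fell further, with log2 fold changes of -4.01, -3.02, -2.70 and -2.58. Kifc1, a minus-end directed spindle motor, fell in both, by 1.11 in KO and 1.83 in KO_Kd, and the test of the difference passed (adjusted p = 0.00386). Enpep fell by 1.41, and the difference from its fall in KO did not pass (adjusted p = 0.511).

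Most targets of p53, the transcription factor that halts division or starts apoptosis after stress, rose. Of 36 tested targets 29 rose and 0 fell, with a median log2 fold change of 0.57 beside 0.08 for all genes and 19.5% of all genes higher. At an unadjusted limma p under 0.05, 31 were higher and 0 lower, beside 4795 of all 13382 genes in either direction. Quantile normalization gave 26 higher and 2 lower at the adjusted threshold. With array weights 19 were higher. Against +/+ cells 26 higher and 0 lower were counted, beside 12.8% and 11.3% of all genes. In KO_Kd against Kd there were 29 higher and 2 lower (median 1.30), beside 42.9% and 20.4% of all genes. In +/+ cells against control 6 higher and 5 lower were counted, with a median of 0.11, beside 21.5% and 6.93% of all genes.

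The members included genes of arrest and of cell death. Cdkn1a, which encodes the cyclin-dependent kinase inhibitor p21, had 2786, 2919.5 and 2727 on the control arrays and 7432, 8638 and 8855 on the KO arrays, against 3109, 3706 and 3081 in +/+ cells (log2 fold change 1.55 ± 0.08 to control and 1.33 to +/+). Pmaip1, which encodes the BH3-only death protein Noxa, had 290.3, 476 and 451 on the control arrays and 1313, 1544 and 1454 on the KO arrays, and +/+ cells stood between at 757, 884 and 839. Eda2r, a death receptor of the TNF receptor family, had 393, 393 and 335 on the control arrays and 1047, 1325 and 1389 on the KO arrays, with +/+ cells at 423, 484 and 483. Trp53inp1, a stress protein that enhances p53 activity, had 2804, 2850.1 and 2528 on the control arrays and 7248, 7821 and 8016 on the KO arrays. These 4 genes, the list members with the largest differences, had every KO array above every control array, as had 27.6% of all genes. They did not overlap with the +/+ cells either. Nothing is read from that, because the share was not counted over all genes, of which 12.8% were called higher in KO than in +/+ cells. Btg2, an antiproliferative gene that is also an early response gene, rose by 1.21 ± 0.15, and the death receptor gene Fas rose by 0.73 ± 0.10.

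The Cdkn1a promoter is shown because the gene is both a p53 target and a known target of deacetylase complexes acting through GC boxes. RefSeq lists 2 starts for it, and the 120 bases before each are given in the orientation of the gene (build GRCm38.p6, 5′ to 3′). Capitals mark a p53 response element, searched as 2 adjacent decamers with at most 1 mismatch, in the first and the GC box GGGCGG, searched on both strands, in the second.
Cdkn1a (chr17:29090859-29090978, + strand): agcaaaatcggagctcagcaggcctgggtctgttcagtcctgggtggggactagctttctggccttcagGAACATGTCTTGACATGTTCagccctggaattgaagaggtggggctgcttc
Cdkn1a (chr17:29093649-29093768, + strand): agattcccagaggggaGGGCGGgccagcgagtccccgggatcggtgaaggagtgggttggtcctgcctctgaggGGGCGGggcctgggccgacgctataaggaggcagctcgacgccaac
The p53 element was found in 2 of 40 promoters of the tested p53 targets (Cdkn1a and Ccng1), and in 7 of the 13699 promoters of genes tested, within 250 bases before the start. Of all 32851 promoters 0.0761% held it. The GC box is common, present in 62.5% of the p53 target promoters and in 55.3% of the promoters of genes tested (32.7% of all promoters). A match describes these letters and is not a measurement of binding.

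Most genes of DNA replication fell. Of 53 tested, 37 fell and 0 rose, with a median of -0.39 beside 4.64% of all genes lower, and quantile normalization gave 48 lower. At an unadjusted limma p under 0.05 there were 43 lower and 0 higher, beside 4795 of all 13382 genes in either direction. The count was uneven between comparisons: 10 were lower against +/+ cells (median -0.17), 15 in +/+ cells against control (median -0.19) and 52 in KO_Kd against Kd (median -1.48). The shares of all genes lower in these comparisons were 11.3%, 6.93% and 20.4%. Without KO replicate 1 or KO replicate 2 there were 22 lower members, without control replicate 1 or 2 there were 25, and with array weights 12. Timeless, which stabilises replication forks, had 795, 737 and 568 on the control arrays and 258, 349 and 447 on the KO arrays. Its log2 fold change was -0.98 ± 0.23 (adjusted p = 0.00501). Its KO arrays all lay below its control arrays, as for 7.36% of all genes. Dnmt1, the maintenance DNA methyltransferase that travels with the fork, had 2567, 2759 and 2554 on the control arrays and 1702, 1723 and 2013 on the KO arrays (log2 fold change -0.53 ± 0.11, adjusted p = 0.00249). Recql4, a helicase needed at replication origins, fell by 0.68 ± 0.10.

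Mitosis is the step at which the copied chromosomes are drawn apart. Of 61 genes of mitosis and the kinetochore 28 fell and 1 rose (median -0.43), beside 4.64% and 19.5% of all genes. Quantile normalization gave 52 lower and 1 higher. Without control replicates 1 and 2 in turn there were 15 and 16 lower members, without KO replicates 1 and 2 there were 15 and 14, and with array weights 7. Spc24, a subunit of the Ndc80 complex that ties kinetochores to microtubules, had 1221, 1194 and 1083 on the control arrays and 549, 577 and 683 on the KO arrays (log2 fold change -0.94 ± 0.19, adjusted p = 0.00181). Cdc25c, the phosphatase that activates cyclin-dependent kinase 1, had 481, 391 and 357 on the control arrays and 195, 202 and 265 on the KO arrays (log2 fold change -0.85 ± 0.12, adjusted p = 0.00013). Against +/+ cells 13 members were lower (median -0.27), beside 11.3% of all genes. In KO_Kd against Kd 60 were lower (median -2.13), beside 20.4% of all genes. Spc24 went from 1086, 1061 and 1079 to 108, 214 and 90.7 there, a larger fall than in KO (adjusted p of the difference 1.65e-05).

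Of 33 cell cycle regulators 8 rose and 4 fell, beside 19.5% and 4.64% of all genes, or 6 and 12 after quantile normalization. The median of 0.05 turned to -0.04. The lower members numbered 2 without KO replicate 2, and 2 with array weights. Cdkn2c, which encodes the cyclin D kinase inhibitor p18, fell from 1107, 1108 and 1115 to 568, 634 and 744, while +/+ cells were at 1134, 1112 and 1110.5. Ccnd2, which encodes cyclin D2, rose from 9367, 9401 and 8189 to 13991, 15589.7 and 15991 (log2 fold change 0.76 ± 0.08, adjusted p = 1.33e-05).

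Of 36 DNA repair genes 14 fell and 2 rose (median -0.23), beside 4.64% and 19.5% of all genes. Quantile normalization gave 24 lower and 1 higher. Without control replicate 2 or KO replicate 2 there were 9 lower members, and with array weights 7. The higher members numbered 0 without control replicate 3 or KO replicate 3 and 1 without control replicate 1 or KO replicate 2. Fancd2, the central protein of the Fanconi anaemia pathway of crosslink repair, had 282, 302 and 231 on the control arrays and 119.5, 116 and 147 on the KO arrays (log2 fold change -1.0 ± 0.12, adjusted p = 2.12e-05). Brca2, a DNA repair gene, had 483, 468 and 554 on the control arrays and 277, 273 and 375 on the KO arrays (log2 fold change -0.69 ± 0.12, adjusted p = 0.000517). Both, like 7.36% of all genes, had every KO array below every control array. Both were also lower in KO than in +/+ cells, at -0.63 and -0.38.

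Promoters of 5 falling genes of the replication and mitosis lists, chosen after their values were seen, are given because the CCAAT box and the cell cycle homology element TTTGAA are textbook features of such promoters. The stretches are the 120 bases before the RefSeq start (GRCm38.p6, 5′ to 3′ in the orientation of the gene), with capitals for CCAAT and TTTGAA on either strand in the first 4, and for CCAAT and the E2F motif TTTGGCGC in Mcm6.
Cdk1 (chr10:69352913-69353032, - strand): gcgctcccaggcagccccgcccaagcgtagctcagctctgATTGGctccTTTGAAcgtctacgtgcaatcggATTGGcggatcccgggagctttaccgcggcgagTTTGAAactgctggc
Ube2c (chr2:164769809-164769928, + strand): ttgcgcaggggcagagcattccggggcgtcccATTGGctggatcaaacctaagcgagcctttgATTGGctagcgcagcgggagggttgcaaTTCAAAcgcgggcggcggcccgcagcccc
Espl1 (chr15:102296173-102296292, + strand): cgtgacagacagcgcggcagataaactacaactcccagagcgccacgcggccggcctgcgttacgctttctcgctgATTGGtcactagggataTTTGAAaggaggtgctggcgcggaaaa
Top2a (chr11:99024190-99024309, - strand): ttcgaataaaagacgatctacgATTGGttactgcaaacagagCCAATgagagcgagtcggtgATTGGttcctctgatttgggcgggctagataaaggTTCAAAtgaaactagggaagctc
Mcm6 (chr1:128359706-128359825, - strand): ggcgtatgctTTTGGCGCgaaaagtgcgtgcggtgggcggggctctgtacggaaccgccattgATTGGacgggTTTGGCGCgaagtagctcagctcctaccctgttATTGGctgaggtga
CCAAT was found within 250 bases before the start in 41 of 56 mitotic promoters (73.2%) and 31 of 51 replication promoters (60.8%), beside 34.9% of the promoters of genes tested and 33.8% of all promoters. TTTGAA was found in 20 of the 56 mitotic promoters (35.7%) and 7 of the 51 replication promoters (13.7%), beside 10.9% of those of genes tested and 16% of all. TTTCCCGC or TTTGGCGC was found in 6 of the 51 replication promoters (11.8%) and 3 of the 56 mitotic promoters (5.36%), beside 2.31% and 1.3%. Among the promoters of all genes lower in KO the shares were 41.0% for CCAAT, 13.6% for TTTGAA and 5.07% for the E2F motifs, and among those of all higher genes 32.9%, 8.92% and 1.32%. These shares are descriptions without a test.

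The lysosome, the compartment that degrades proteins, lipids and sugars, showed a broad rise. Of 43 lysosomal genes 34 rose and 0 fell (median 0.40), beside 19.5% and 4.64% of all genes, or 33 and 0 after quantile normalization. At an unadjusted limma p under 0.05 there were 39 and 0, beside 4795 of all 13382 genes in either direction. Manba, which encodes beta-mannosidase, had 151, 159.6 and 164 on the control arrays and 362, 378 and 381 on the KO arrays (log2 fold change 1.16 ± 0.11, adjusted p = 3.09e-06). Dpp7, a lysosomal dipeptidyl peptidase, had 469, 522 and 393 on the control arrays and 852, 1005 and 988 on the KO arrays (log2 fold change 1.02 ± 0.10, adjusted p = 3.25e-06). Ctsd, which encodes the aspartic protease cathepsin D, had 3089.7, 3206 and 3024 on the control arrays and 4708, 5818 and 5966 on the KO arrays (log2 fold change 0.81 ± 0.09, adjusted p = 9.47e-06). All 3, like 27.6% of all genes, had every KO array above every control array. The sialidase gene Neu1 rose by 1.01 ± 0.19.

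Against the tamoxifen-treated +/+ cells 12 higher and 2 lower of the 43 were counted (median 0.12), beside 12.8% and 11.3% of all genes. The +/+ cells had 26 higher and 1 lower than control (median 0.27), beside 21.5% and 6.93% of all genes. Dpp7 was at 837, 799 and 793 in +/+ cells, and KO differed from them by 0.22 ± 0.10 (adjusted p = 0.125), whereas Manba was at 128, 101 and 103, below control, with a difference of 1.63 ± 0.11 (adjusted p = 2.05e-08). In KO_Kd against Kd 41 of 43 rose (median 1.21), beside 42.9% of all genes.

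The vacuolar proton pump, which acidifies the lysosome, rose in each tested subunit. All 15 tested members passed as higher in KO than control (median 0.44), beside 19.5% of all genes. Quantile normalization left 14 higher, and leaving out single arrays 12 to 15. Atp6v0b, a subunit of the membrane ring, had 2166, 2278 and 2311 on the control arrays and 3219, 3749 and 4022 on the KO arrays (log2 fold change 0.69 ± 0.10, adjusted p = 8.64e-05). Atp6v0d1, which links the ring to the catalytic head, had 3030.4, 3037 and 2964 on the control arrays and 3952, 4250.0 and 4751 on the KO arrays (log2 fold change 0.51 ± 0.07, adjusted p = 0.000108). The accessory subunit gene Atp6ap2 rose by 0.52 ± 0.07, and Atp6v0a1 rose by 0.62 ± 0.16, a call that was lost without KO replicate 3. Against +/+ cells 4 higher and 1 lower were counted (median 0.13), beside 12.8% and 11.3% of all genes. In that comparison Atp6v0b was at -0.02 (adjusted p = 0.926) and Atp6v0d1 at 0.42 (adjusted p = 0.000465). Autophagy genes, which deliver cargo to the lysosome, had 14 higher and 0 lower of 33 (median 0.21), beside 19.5% and 4.64% of all genes. Quantile normalization gave 11 and 2, and array weights 6 and 0. Map1lc3b, the LC3B protein of the autophagosome membrane, had 11752, 11725 and 10826 on the control arrays and 15122, 16486 and 17057 on the KO arrays (log2 fold change 0.50 ± 0.07, adjusted p = 5.85e-05).

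The promoters of 3 rising lysosomal genes, chosen after their values were seen, are given because they carry TCACGTGA, the core of the CLEAR element that TFEB and TFE3 are known to bind. Capitals mark it in the 120 bases before the RefSeq start (GRCm38.p6, 5′ to 3′ in the orientation of the gene).
Dpp7 (chr2:25356333-25356452, - strand): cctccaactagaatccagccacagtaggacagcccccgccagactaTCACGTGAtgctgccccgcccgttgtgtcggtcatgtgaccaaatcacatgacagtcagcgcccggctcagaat
Ctsd (chr7:142387828-142387947, - strand): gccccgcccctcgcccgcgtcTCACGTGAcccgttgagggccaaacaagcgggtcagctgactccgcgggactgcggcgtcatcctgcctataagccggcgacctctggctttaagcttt
Mcoln1 (chr8:3500399-3500518, + strand): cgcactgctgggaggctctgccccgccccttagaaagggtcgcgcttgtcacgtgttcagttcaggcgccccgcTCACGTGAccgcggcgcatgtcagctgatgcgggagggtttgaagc
None of the motifs searched contains another. TCACGTGA, which reads the same on both strands, was found in 6 of 41 lysosomal promoters (14.6%) and 1 of 10 promoters of proton pump subunits, within 250 bases before the start. It was found in 1.39% of the promoters of genes tested and 0.785% of all promoters, in 2.18% of those of the genes higher in KO and in 1.31% of those of the lower genes.

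**Figure D4:**
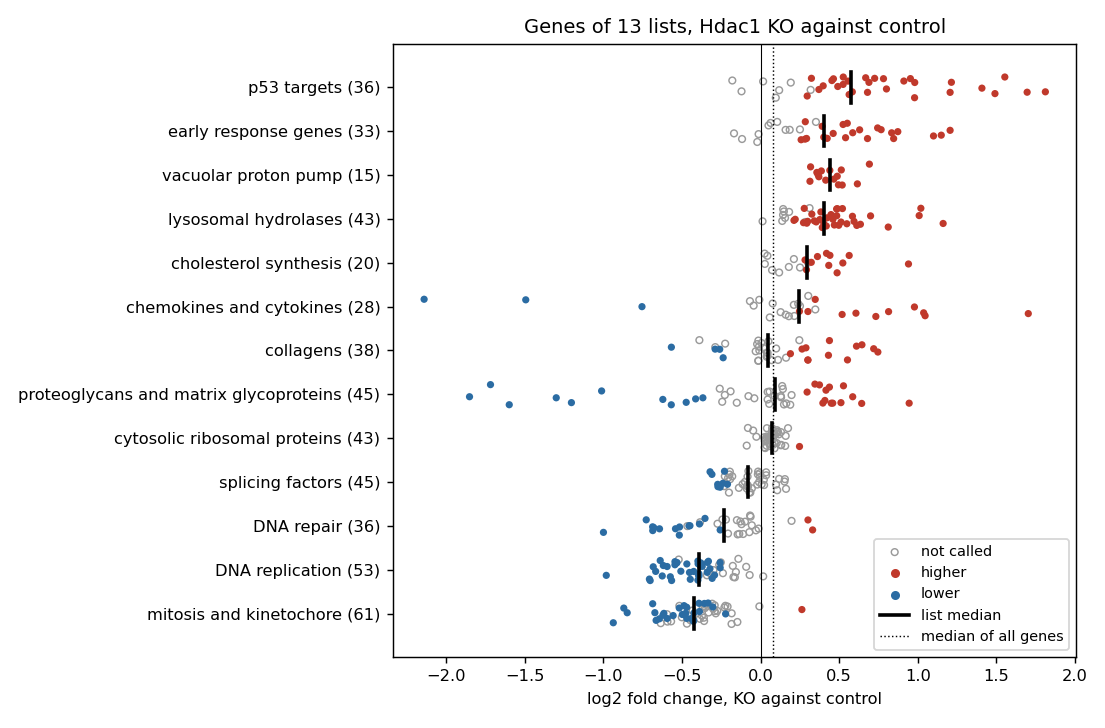
Log2 fold change of KO against control for each tested gene of 13 lists (number of genes in brackets), 1 point per gene, filled where the adjusted p was under 0.05. Black bars mark list medians, from 0.57 for p53 targets to -0.43 for mitosis, and the dotted line the median of all genes.

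Early response genes, which growth factors and stress induce without new protein synthesis, had 22 higher and 0 lower of 33 (median 0.40). Of all genes 19.5% were higher and 4.64% lower. Quantile normalization gave 19 and 2 for the list, and array weights 13 higher. Dusp1, a phosphatase that switches off MAP kinases, had 2421, 2722 and 2761 on the control arrays and 5417, 5703 and 5866 on the KO arrays (log2 fold change 1.10 ± 0.08, adjusted p = 2.74e-07), and +/+ cells were at 3209.8, 3323 and 3151. Nr4a1, an orphan nuclear receptor, had 287, 319 and 363 on the control arrays and 719, 766 and 715 on the KO arrays (log2 fold change 1.15 ± 0.10, adjusted p = 1.11e-06), and +/+ cells were higher still at 918, 982 and 894. The +/+ cells had 18 higher and 3 lower members than control (median 0.29), beside 21.5% and 6.93% of all genes. KO against +/+ had 11 higher and 9 lower (median 0.05), beside 12.8% and 11.3%. In KO_Kd against Kd Dusp1 and Nr4a1 were at 0.12 and -0.05 (adjusted p = 0.197 and 0.709), and both differed from KO in the interaction test (adjusted p = 4.44e-06 and 5.2e-06). The cyclic AMP response element TGACGTCA, which reads the same on both strands, was found in 3 of 35 early response promoters (8.57%) within 250 bases before the start, beside 2.4% of those of genes tested and 1.55% of all.

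Signalling molecules that fibroblasts release changed in both directions. Of 28 chemokines and cytokines 11 rose and 3 fell (median 0.24), beside 19.5% and 4.64% of all genes. Quantile normalization gave 10 and 3. Il11 stood at the top and Cxcl5 and Cxcl1 at the bottom. Ccl9, a chemokine for myeloid cells, had 418, 495 and 402 on the control arrays and 814, 945 and 1008 on the KO arrays (log2 fold change 1.05 ± 0.17, adjusted p = 0.00028). It was lower in +/+ cells, at 163, 261 and 189. Fgf2, basic fibroblast growth factor, rose from 24.4, 24.8 and 20.3 to 57.1, 64.5 and 55.3 (log2 fold change 0.94 ± 0.08, adjusted p = 7.65e-07). Ereg, the EGF receptor ligand epiregulin, rose from 1383, 1523 and 1504 to 2351, 2811 and 2678, and fell in KO_Kd against Kd by 0.76.

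Within the TGF-beta and BMP pathway 14 of 42 genes rose and 1 fell (median 0.13), beside 19.5% and 4.64% of all genes, or 11 and 5 after quantile normalization. With array weights 9 were higher, and the lower members numbered 2 without control replicate 3 or KO replicate 3. Among ligands, Inhba, the beta A subunit of activin A, joined Inhbb, with 2281, 2730.1 and 2642 on the control arrays and 4492, 4549 and 4869.6 on the KO arrays (log2 fold change 0.86 ± 0.10, adjusted p = 1.17e-05). Inhba was at 5456, 4858 and 5766 in +/+ cells (adjusted p against KO 0.137), and in KO_Kd against Kd the difference was 0.14 (adjusted p = 0.204). Among inhibitors, Grem1, the secreted BMP antagonist gremlin, had 7755, 7761 and 7532 on the control arrays and 12624, 12179.5 and 16341 on the KO arrays (log2 fold change 0.82 ± 0.10, adjusted p = 2.08e-05) and was at 4407, 3881 and 4598 in +/+ cells. Among targets, Tgfbi, a matrix protein induced by TGF-beta, fell from 13430.5, 12343 and 12067 to 7131, 7274 and 8691 (log2 fold change -0.72 ± 0.11, adjusted p = 0.000237). The fall of Tgfbi in KO_Kd against Kd was 0.65, and the test of the difference did not pass (adjusted p = 0.769). Of 45 Wnt pathway genes 6 rose and 4 fell (5 and 8 after quantile normalization), and of 36 angiogenic factors and receptors 14 rose and 4 fell (12 and 7), beside 19.5% of all genes higher and 4.64% lower. The lower Wnt genes numbered 2 without control replicate 1 or KO replicate 1 or 2, and 2 with array weights. The higher angiogenic genes numbered 8 without KO replicate 3 and 9 without control replicate 3, the lower 2 without KO replicate 2, and array weights gave 8 and 1. Nrp2, a coreceptor for VEGF and semaphorins, was among those that fell, from 238, 316 and 350.4 to 136, 152 and 174.

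In the insulin-like growth factor axis 7 of 17 genes rose and 0 fell, beside 19.5% and 4.64% of all genes. Quantile normalization gave 7 and 2. Pappa, the protease that frees IGF from its binding proteins, had 313, 417 and 467 on the control arrays and 872, 769 and 875 on the KO arrays (log2 fold change 1.06 ± 0.13, adjusted p = 2.34e-05), and +/+ cells were higher at 1143, 1212 and 974. Of 23 imprinted genes 5 rose and 3 fell in KO (5 and 4 after quantile normalization), beside 19.5% and 4.64% of all genes. In KO_Kd against Kd 17 rose and 1 fell, beside 42.9% and 20.4% of all genes. The higher members in KO numbered 2 without KO replicate 3 and 3 without control replicate 3 or KO replicate 2, and 2 with array weights.

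Genes of the extracellular matrix, the protein scaffold that fibroblasts secrete, changed in both directions. Of 38 collagen genes 12 rose and 4 fell, beside 19.5% and 4.64% of all genes. Their median of 0.04 turned to -0.06 after quantile normalization (9 and 8). The lower members numbered 1 without KO replicate 1 and 2 without control replicate 1 or 2 or KO replicate 2, and 1 with array weights. Col3a1, a main fibrillar collagen of fibroblasts, fell from 16612, 15471 and 14792 to 9887, 10562 and 11173 (log2 fold change -0.57 ± 0.07, adjusted p = 3.91e-05). The genes that rose included the anchoring fibril collagen Col7a1, the network-forming Col8a1 and the basement membrane collagens Col4a5 and Col18a1, by 0.75, 0.72, 0.65 and 0.61. Each of these 4 also rose against +/+ cells and in KO_Kd against Kd, and Col3a1 rose in KO_Kd, by 0.43.

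Proteoglycans and matrix glycoproteins included several of the genes that fell most. Of 45 genes 14 rose and 11 fell, beside 19.5% and 4.64% of all genes. Olfml3, Abi3bp, Acan, Omd and Aspn were among those that fell. Quantile normalization gave 13 and 14. With array weights 9 were higher. In KO_Kd against Kd 36 higher and 5 lower were counted, beside 42.9% and 20.4% of all genes. Proteases and their inhibitors had 10 higher and 2 lower of 24 (7 and 2 after quantile normalization), beside 19.5% and 4.64% of all genes. The higher members numbered 6 without control replicate 1 or KO replicate 3, the lower 1 without control replicate 1 or 2 or KO replicate 1 or 2, and array weights gave 4 and 1. Tll1, a relative of the procollagen protease BMP1, rose from 408, 486 and 574 to 1006, 1145 and 1033, and Adamts12 rose by 0.78. In +/+ cells Tll1 was at 1017, 1162 and 1206, overlapping KO, and KO minus +/+ was -0.26 for Adamts12. Adamts1, which cleaves large proteoglycans, fell from 5823, 5227 and 4751 to 3215, 3075 and 3491 (log2 fold change -0.69 ± 0.08, adjusted p = 1.47e-05).

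Of 45 adhesion molecules 18 rose and 2 fell (median 0.15), beside 19.5% and 4.64% of all genes, or 15 and 5 after quantile normalization. The lower members numbered 4 without control replicate 3, and 1 with array weights. Contractile and SRF target genes had 18 higher and 0 lower of 34, beside the same shares, or 15 and 1, with 11 higher under array weights. In the Notch pathway 7 of 24 rose and 0 fell, again beside 19.5% and 4.64%, or 6 and 3 after quantile normalization. Array weights gave 4 higher, and 1 was lower without KO replicate 3. Notch3, the receptor known from pericytes, went from 24.9, 32.4 and 20.2 to 80.3, 72 and 111 (log2 fold change 1.30 ± 0.12, adjusted p = 1.97e-06), and from 33.1, 30.8 and 36.3 to 1785, 2069 and 2029 in KO_Kd. Leaving out probe sets of the _x_at and _s_at kinds, which can pick up several transcripts, put Notch3 at 0.21 in KO.

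Of 33 interferon-stimulated genes 6 rose and 0 fell, beside 19.5% and 4.64% of all genes, or 4 and 4 after quantile normalization and 3 and 0 with array weights. Ifit1, which binds viral RNA, went from 13.9, 15.3 and 12.7 to 75.3, 48.7 and 113, a dim gene with a wide spread in KO. Irgm1, an interferon-induced GTPase, went from 995, 1130.0 and 1096 to 1487, 1623 and 1652 (log2 fold change 0.56 ± 0.07, adjusted p = 5.06e-05). Of 19 antigen presentation genes 4 rose in KO (median 0.08), or 2 after quantile normalization, beside 19.5% of all genes. In KO_Kd against Kd 16 rose (median 1.13), where 42.9% of all genes were higher. In KO the higher members numbered 2 without control replicate 2 or 3 or KO replicate 2 or 3, and 0 with array weights. The difference between the deletions was called as higher for 15 of the 19 genes and for 25.7% of all genes.

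Among metabolic groups, cholesterol synthesis had 11 higher and 0 lower of 20 (median 0.30), beside 19.5% and 4.64% of all genes. Quantile normalization gave 8 and 0, and array weights 7 and 0. The +/+ cells had 16 higher and 0 lower than control (median 0.40), beside 21.5% and 6.93% of all genes. KO_Kd against Kd had 2 higher and 15 lower, beside 42.9% and 20.4%. Glutathione and NRF2 genes were mixed in KO, with 13 higher and 3 lower of 41, beside 19.5% and 4.64% of all genes. Quantile normalization gave 12 and 4, and array weights 7 and 1. Gsta4, a glutathione transferase for lipid aldehydes, rose from 968, 1068 and 1011 to 1746, 1873 and 2204, while +/+ cells were at 80.6, 69.1 and 93.9. Gstt1, another transferase, fell from 175, 185 and 153 to 89.1, 97.5 and 73.4, and Ephx1, the microsomal epoxide hydrolase, rose by 0.78 ± 0.06. In Gsta4 the gap between KO and +/+ cells was 4.33 on the log2 scale, beside 0.92 between KO and control.

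Genes known to rise with HDAC inhibitor drugs had 11 higher and 1 lower of 25 in KO (median 0.19). Of all genes 19.5% were higher and 4.64% lower, and quantile normalization gave 9 and 4 for the list. In KO_Kd against Kd 22 of 25 were higher (median 1.37), beside 42.9% of all genes. H1f2, a linker histone, rose from 2678, 2340.0 and 2421 to 4547, 4499 and 4804. In the separate list of histone genes 2 of 14 rose, H1f2 and the H2A variant H2aj (by 0.46 ± 0.07). A further 3 histone genes fell, and the list median was -0.16, beside 19.5% and 4.64% of all genes. Quantile normalization gave 2 and 7 for the histone list, and leaving out single arrays gave 2 to 4 higher and 1 to 4 lower. Uchl1, a ubiquitin hydrolase known from neurons, went from 112, 112 and 113 to 243, 230.4 and 345, below the +/+ cells at 473, 593 and 529.7. Of 36 neuronal genes 3 rose and 2 fell in KO, beside 19.5% and 4.64% of all genes, or 2 and 7 after quantile normalization. In KO_Kd against Kd 28 were higher and 2 lower, beside 42.9% and 20.4% of all genes. The lower members in KO numbered 1 without control replicate 1, 2 or 3 or KO replicate 1 or 2 and 4 without KO replicate 3.

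Chromatin regulators are set beside the 19.5% of all genes that were higher and the 4.64% that were lower. Of 42 subunits of deacetylase complexes 1 rose and 6 fell, Hdac1 itself among the latter, or 1 and 11 after quantile normalization. The higher members numbered 2 without control replicate 1 or 2 and 7 without KO replicate 1, the lower 10 without KO replicate 3, and array weights gave 0 and 2. Gps2, an NCoR complex subunit, went from 304, 273 and 253 to 230.3, 147 and 195 (log2 fold change -0.52 ± 0.15, adjusted p = 0.0162), a call that was lost without control replicate 1 or KO replicate 2. Of 14 class II and IV deacetylases and sirtuins 4 rose (3 after quantile normalization), Sirt7 by 0.42 among them, and Hdac4 fell by 0.39, a call that was lost without control replicate 1. The higher members of that list numbered 2 without control replicate 1 or 3 or KO replicate 3. Of 40 genes of DNA methylation and Polycomb 4 rose and 5 fell, or 1 and 12, and Suv39h2, a histone H3 lysine 9 methyltransferase, fell by 0.72 ± 0.16. The higher Polycomb and DNA methylation genes numbered 1 without control replicate 3 or KO replicate 3 and 2 without control replicate 1. Acetyltransferases had 1 higher and 1 lower of 25 in KO, 0 and 7 after quantile normalization, and 3 lower without KO replicate 3. Hox genes had 0 higher and 3 lower of 18 (0 and 5), with Hoxa7 at 282, 284 and 212 on the control arrays and 133, 111 and 154 on the KO arrays and Hoxa2 at -0.58 ± 0.12 on the log2 scale.

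Housekeeping genes are set beside the same shares of all genes. Cytosolic ribosomal proteins had 1 higher and 0 lower of 43 (median 0.07, beside 0.08 for all genes), and 1 and 4 after quantile normalization. Their higher members numbered 0 without KO replicate 2 and 7 without KO replicate 1. The proteasome had 2 higher and 0 lower of 31, and 1 and 3. Oxidative phosphorylation had 3 higher and 0 lower of 46, and 2 and 12, a direction that turned with the scale, and its higher members numbered 1 without control replicate 3 or KO replicate 2 or 3 and 6 without KO replicate 1. Ribosome biogenesis had 2 higher and 4 lower of 44, and 0 and 16, and splicing factors 0 higher and 8 lower of 45, and 0 and 28. The lower splicing factors numbered 2 or 3 without control replicate 1 or 2 or KO replicate 1 or 2, and 1 with array weights. The lower ribosome biogenesis genes numbered 2 without control replicate 2 or KO replicate 1 or 2 and 10 without KO replicate 3. Targets of the oestrogen receptor, to which tamoxifen binds, had 4 higher and 1 lower of 16 (median 0.11), and 2 and 2 after quantile normalization. In +/+ cells against control 2 were higher and 6 lower, beside 21.5% and 6.93% of all genes. Of 31 regulators of apoptosis 7 rose and 4 fell, beside 19.5% and 4.64% of all genes, or 7 and 7 after quantile normalization. Without KO replicate 1 there were 12 higher. Ripk3, a kinase of necroptosis, was at -0.70 against control and -3.28 against +/+ cells.

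**Figure D5:**
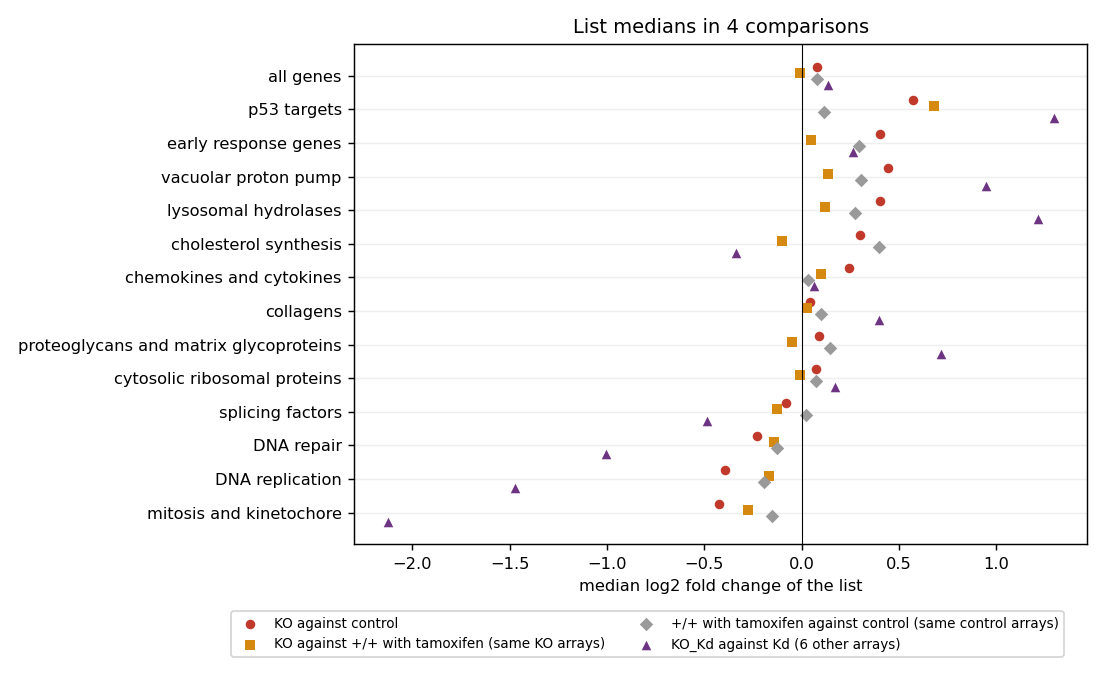
Median log2 fold change (horizontal axis) of 13 lists and of all genes in KO against control (red), KO against +/+ with tamoxifen (orange), +/+ with tamoxifen against control (grey) and KO_Kd against Kd (purple). p53 targets are at 0.57 and 0.68 in the comparisons of KO and at 0.11 in the +/+ cells, while the lysosomal list is at 0.40, 0.12 and 0.27.

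Markers of cell types were read for the label. Of 20 fibroblast markers 1, Fap, was under the 40th percentile on all 6 arrays. Col1a1 lay between 24826 and 27397 in control and between 21037 and 24395 in KO. Dcn and Lum were dim, at 19.9 to 25.1 and 14.8 to 24 in control and 27.1 to 42.7 and 16 to 20.4 in KO. Of the tested fibroblast markers 4 rose and 4 fell, beside 19.5% and 4.64% of all genes, or 4 and 6 after quantile normalization. The higher members numbered 8 without KO replicate 1, and the lower 2 without control replicate 1 or 2 or KO replicate 1. Thy1, a surface glycoprotein of fibroblasts, rose from 291, 271 and 279 to 605, 559 and 759.9, below the +/+ cells at 1299, 1239 and 1187, and Pdgfra, the PDGF receptor of mesenchymal cells, fell from 1118, 1219.9 and 1077 to 652, 702 and 714. The summed level of the tested fibroblast markers ran from 278657 to 288332 in control and from 274248 to 317928 in KO.

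Markers of other cell types were read as well. Of 15 endothelial markers 10, of 15 macrophage markers 6 and of 17 epithelial markers 5 were under the 40th percentile on all 6 arrays. Pecam1 was at 11.3 to 13.6 and Ptprc at 12.9 to 16 in KO. The macrophage marker Cd14 was brighter, at 188 to 219 in control and 203 to 328 in KO. Csf1r, the receptor for macrophage colony-stimulating factor, rose from 71.5, 94.8 and 97.6 to 208, 116 and 203, while the macrophage markers Adgre1 and Cd68 lay at 15.5 to 21 and 24.4 to 34.9 in KO, beside 15.1 to 19.4 and 24.4 to 34.3 in control. Of 12 tested markers of pericytes and smooth muscle 6 rose and 0 fell, beside 19.5% and 4.64% of all genes. Quantile normalization gave 5 and 1. Their summed level was 17843 to 19054 in control and 23354 to 27836 in KO. The brightest were Pdgfrb, also listed as a fibroblast marker, and Cnn1, which make up most of this sum. Pdgfrb was at 8156 to 8326 in control and 9479 to 11329 in KO, and Cnn1 at 7032 to 7609 and 9963 to 11906. Rgs5 was dim, at 35.6 to 40.9 in control and 38.0 to 46.8 in KO, and Angpt1 went down, from 31.2 to 45.4 in control to 17.3 to 34.1 in KO. Of 11 tested epithelial markers 3 rose, beside 19.5% of all genes, and 3 after quantile normalization. Krt19, a keratin, was at 288, 388 and 346 in control and 599, 653 and 773 in KO. The desmosome gene Pkp1 was at 80.3, 65.9 and 65.1 in control and 159.9, 173 and 226 in KO. Cdh1 and Epcam lay at 21.1 to 23.8 and 41.2 to 52.2 in KO, beside 21.8 to 31.1 and 47.7 to 58.0 in control. The summed level of the tested markers ran from 399.7 to 429 in control and 462 to 663 in KO for macrophages, from 194 to 213 and 156 to 199 for endothelium, and from 591 to 706 and 1001 to 1259 for epithelium. Krt19 and Pkp1 were the brightest of the epithelial markers, and the median log2 fold change of that list was -0.003. In +/+ cells the epithelial sum was 923 to 1149. The part of such cells in the results was not tested.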

How the data were processed

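RNA of 15 samples of mouse embryonic fibroblasts was hybridised to Affymetrix 430 2.0 arrays, 3 arrays in each of 5 groups. The deposited table holds 1 intensity per probe set and array on a linear scale, 45037 probe sets in all. The sources used here do not say how the authors turned scans into these intensities or scaled them. Gene names came from the platform annotation, in which 34945 probe sets have 1 symbol, 932 several and 9160 none; 34741 were matched by Entrez ID to RefSeq and 0 symbols changed, and only probe sets with 1 symbol were named.

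From the deposited intensities, log2(intensity + 16) was computed with no further scaling. Probe sets were kept where 3 or more arrays had them above the array's own 40th percentile (29827), and each gene was represented by its brightest, leaving 13382 genes. One model with a mean per group was fitted to all 15 arrays in limma 3.58.1 (R 4.3.3), with Benjamini-Hochberg adjustment over all genes and calls at an adjusted p under 0.05. Contrasts were KO against control, KO against +/+ cells, +/+ cells against control, KO_Kd against Kd and the difference between both deletions. The fit was also run on simulated data, with a spread for each gene equal in all groups and no shift of scale between arrays. That simulation cannot speak to the scale or the wider spread within KO described above. Figures and motif searches used Python 3.11.15, pandas 2.3.3 and matplotlib 3.10.9; promoters are RefSeq's table for GRCm38.p6, matched by symbol for 10734 of the genes tested.

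The comparison and 53 gene lists (1532 of 1856 entries tested) were chosen with earlier results of these data known, and list counts are descriptions without a test of the list. The genes that could be named were Hdac1, Hdac2 and Hdac3, the 15 highest and 15 lowest by log2 fold change among genes past the threshold whose KO and control arrays do not overlap (clone and model names passed over), up to 4 members of each list with the largest absolute log2 fold change and all called members where 5 or fewer were called. They also included the 8 highest and 8 lowest genes called alike in both deletions, the 5 highest and 5 lowest by the difference between deletions, and genes off in one group and on in the other. The text describes a selection of them. Genes named outside this rule, chosen after their values were seen, are those of the promoter stretches and the defining markers of cell types. Ccng1, named for its promoter match, also lies outside the rule. Same-numbered KO and control arrays did not deviate together (correlations of 0.01, 0.11 and -0.07), so no pairing was used. Alternatives covered the variance model, the groups fitted, a replicate block, array weights, the filter, the choice of probe set, quantile normalization, median centring, the pseudocount and leaving out each array.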

Additional observations from a re-analysis of the deposited data

Results flagged for a closer look

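Of the 97 genes described under the rule for named genes, 79 were picked out because the deletion's effect in cells with the Hdac2 knockdown differed from its effect in cells without it by limma's interaction test at an adjusted p under 0.05, a test that 42.9% of all genes passed. The value beside each gene is that difference, KO_Kd minus Kd less KO minus control, in log2 units (3 arrays a group). Many of the 97 genes were chosen by their KO against control values, which enter this test, and some by the difference itself. The count of 79 is therefore not to be compared with the 42.9%. No cause of these differences was tested.

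The largest group had risen in KO and rose further with the knockdown. These genes were Cox6b2 (4.62), Notch3 (4.02), Gas6 (3.44), Nppb (2.53), Uchl1 (2.51), Neu1 (1.96), Grem1 (1.9), Manba (1.88), Dpp7 (1.81), Ano3 (1.67), Gsta4 (1.66), Bnc1 (1.46), Inhbb (1.43), Slc1a6 (1.4), Vnn1 (1.37), Fas (1.36), Trnp1 (1.34), Col18a1 (1.33), Ddit4l (1.25), Col7a1 (1.2), Pmaip1 (0.99), Ctsd (0.94), Trp53inp1 (0.92), Atp6v0b (0.85), Atp6v0d1 (0.82), Hoatz (0.71), H2aj (0.68), Eda2r (0.67), Cdkn1a (0.62), Serpinb9b (0.6), Map1lc3b (0.6), Col8a1 (0.6), Atp6ap2 (0.57), Ephx1 (0.53), Pappa (0.48), Sirt7 (0.47), Irgm1 (0.43) and Col4a5 (0.35). They include the p53 targets Cdkn1a, Pmaip1, Eda2r, Trp53inp1 and Fas and the lysosomal genes Neu1, Manba, Dpp7 and Ctsd.

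Genes that had risen in KO and rose less with the knockdown were Siglecg (-1.64) and Fgf2 (-0.74). Those that had risen in KO and did not pass the test in KO_Kd against Kd were Foxs1 (-1.79), Il11 (-1.63), Ccl9 (-1.33), Nr4a1 (-1.2), Csf1r (-1.05), Dusp1 (-0.98), Pkp1 (-0.87) and Inhba (-0.72), among them secreted factors and early response genes. The genes that had risen in KO and fell in KO_Kd against Kd were Krt19 (-2.13) and Ereg (-1.58).

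Among the genes that had fallen in KO, the replication, mitosis and repair genes below fell further with the knockdown, and so did several matrix and chemokine genes. The values were Rtl3 (-2.53), Spc24 (-1.98), Aspn (-1.81), Timeless (-1.7), Adamts1 (-1.61), Cdc25c (-1.58), Omd (-1.4), Fancd2 (-1.25), Cxcl1 (-1.08), Brca2 (-0.85), Recql4 (-0.79), Dnmt1 (-0.77), Kifc1 (-0.72) and Suv39h2 (-0.72). The genes that fell in both and less with the knockdown were Cxcl5 (1.24), Olfml3 (0.94) and Klf5 (0.68). The genes that had fallen in KO and rose in KO_Kd against Kd were Acan (3.76), Mest (3.72), Abi3bp (3.24), Capn6 (2.46), Gstt1 (2.35), Mme (1.99), Ripk3 (1.45), Pdgfra (1.39) and Col3a1 (0.99). Hoxa7 (0.86) and Cdkn2c (0.59) had fallen in KO and did not pass in KO_Kd against Kd. Hdac3 (0.26) was not called in KO against control as deposited and was higher in KO_Kd against Kd.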

How the results depend on the processing

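With the scaling changed, the balance of directions moved. Quantile normalization gave 1927 lower genes in KO against control (621 as deposited), 2010 in +/+ cells against control and 4368 in KO_Kd against Kd. Median centring gave 1440 higher and 2421 lower genes in KO against control, 1612 and 2252 in +/+ cells against control, and 3638 and 5549 in KO_Kd against Kd. Weighting arrays by their fit gave 1073 higher, 203 lower and 1276 changed genes in KO against control, and 911 higher and 690 lower against +/+ cells. The fit of these weights gave convergence warnings, and the cause of the loss was not tested.

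Leaving out single arrays gave 1745 to 3635 higher, 393 to 934 lower and 2360 to 4028 changed genes in KO against control, and 1282 to 2045 higher and 975 to 2291 lower against +/+ cells (975 without KO replicate 1 and 2291 without KO replicate 3). The ranges were 5236 to 5556 and 2433 to 2788 in KO_Kd against Kd, 1981 to 2630 and 724 to 823 in +/+ cells against control, and 5199 to 5890 for the interaction. With the replicate number as a block there were 2430 higher and 571 lower genes, although the numbers did not pair the arrays.

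Of the 95 named genes called in KO against control, 87 were called under every alternative that held them (16 for Kifc1, Atp6v0b, Ifit1 and Fgf2 and 17 for the others), and none of the 97 reversed while called. Calls were lost for Notch3 without _x_at and _s_at probe sets (0.21), for Timeless, Neu1, Nrp2, Hoxa7, Gps2 and Hdac4 under array weights, for Hdac4 with the mean of probe sets, and for Atp6v0a1, Gps2 and Hdac4 with single arrays left out as given above. Hdac3 passed with median centring.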
